A study of Mus musculus with 8 samples.

Results

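Class IIa histone deacetylases, the Mef2 transcription factors they bind, the histone methyltransferase *Ezh2* and the phosphatase subunit *Ppp2ca* were followed in the cerebellum of mice with and without ATM. The 9 genes were chosen by name, as chromatin regulators and their partners tied to ATM loss in neurons. No threshold on a measured value entered the choice, which was made with earlier results of these data known. They were *Hdac4*, *Hdac5*, *Hdac7*, *Hdac9*, *Mef2a*, *Mef2c*, *Mef2d*, *Ezh2* and *Ppp2ca*, out of 56691 genes in the table, and 9 of the 9 were among the 22423 genes that passed the filter on low counts. Bulk RNA sequencing was available for 4 *Atm*-WT (labelled ATM +/+ and Control) and 4 *Atm*-KO (ATM -/-) mice aged 6 months, with 1 library per mouse and the labels name no treatment. The *Atm*-KO mice came from crosses of heterozygous B6;129S4-Atmtm1Bal/J animals, with *Atm*-WT littermates as controls, and carry the disrupted allele in every cell of the body. Mouse 7F of the *Atm*-KO group is the only mouse whose tag ends in F, and the other tags end in M. Each library represents the whole tissue, so that fewer cells of a type and less RNA per cell cannot be told apart.

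Class IIa histone deacetylases have little deacetylase activity of their own, and act as signal-controlled scaffolds that carry NCoR, SMRT and HDAC3 to Mef2 factors on DNA. Kinases of the CaMK, PKD and SIK families phosphorylate them, 14-3-3 proteins then hold them in the cytoplasm, and the phosphatase PP2A, whose catalytic subunit *Ppp2ca* encodes, reverses the phosphorylation. In neurons without ATM, HDAC4 protein is known to gather in the nucleus, where genes driven by Mef2 are repressed. EZH2, the catalytic subunit of Polycomb repressive complex 2 (PRC2), writes the repressive mark H3K27me3, and its protein is a target of ATM. These events concern protein location, phosphorylation and stability, which RNA counts do not measure.

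Promoter windows of the 9 genes were read from the RefSeq promoter table (GRCm38.p6), from 250 bases before to 30 bases after a transcription start. All 9 genes were matched, with 15 starts between them. The windows of *Hdac5* and *Mef2a* are shown because each holds a MEF2 box, the A/T-rich element bound by Mef2 factors, and that of *Ezh2* because it holds an E2F site and the gene is described at length further on. Capitals mark the MEF2 box, the E2F site (TTTCCCGC, TTTCGCGC, TTTGCCGC or TTTGGCGC) and the CCAAT box (CCAAT), each searched on both strands, and no marked elements overlap. The *Hdac5* window lies at chr11:102230143-102230422 on the minus strand, the *Mef2a* window at chr7:67372829-67373108 on the minus strand and the *Ezh2* window at chr6:47595001-47595280 on the minus strand.
*Hdac5*: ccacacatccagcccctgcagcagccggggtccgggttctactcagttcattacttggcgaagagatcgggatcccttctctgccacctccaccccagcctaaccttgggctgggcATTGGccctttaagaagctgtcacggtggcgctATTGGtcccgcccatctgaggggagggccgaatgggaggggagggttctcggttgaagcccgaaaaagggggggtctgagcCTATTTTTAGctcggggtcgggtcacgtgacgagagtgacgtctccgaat
*Mef2a*: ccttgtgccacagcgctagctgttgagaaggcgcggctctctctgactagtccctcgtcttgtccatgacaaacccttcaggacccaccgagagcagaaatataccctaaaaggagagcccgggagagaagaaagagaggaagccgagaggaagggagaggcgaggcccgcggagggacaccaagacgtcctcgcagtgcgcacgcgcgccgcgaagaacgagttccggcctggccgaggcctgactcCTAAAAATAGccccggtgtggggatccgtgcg
*Ezh2*: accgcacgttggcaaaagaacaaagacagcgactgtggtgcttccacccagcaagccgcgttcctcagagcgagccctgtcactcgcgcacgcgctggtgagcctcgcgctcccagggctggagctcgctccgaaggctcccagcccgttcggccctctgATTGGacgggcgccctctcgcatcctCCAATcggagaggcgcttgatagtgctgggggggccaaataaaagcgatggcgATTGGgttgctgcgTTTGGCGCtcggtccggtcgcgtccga
The MEF2 box of *Hdac5* began 20 bases before the start and that of *Mef2a* 2 bases before it. MEF2 boxes occurred in 3.07% of the 32851 windows of the same length in that table. The E2F site of *Ezh2* began 4 bases after the start, with 3 CCAAT boxes ahead of it. An E2F site stood in 2.12% and a CCAAT box in 36.1% of all windows. A cAMP response element (TGACGTCA) was found among the 9 genes in *Ppp2ca* alone, beginning 26 bases before its start, and in 1.74% of all windows. These motifs and the window were chosen after the sequences had been seen, and a match describes the letters and not the binding of a factor.

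Total counts ranged from 65967130 to 88030300 per library. Levels are given as CPM, which here are counts scaled to library size with TMM factors, and are followed by the SD over 4 mice. Differences were fitted with the quasi-likelihood method of edgeR, and adjusted p-values follow Benjamini and Hochberg across the whole set of genes tested. Each library carries the tag of its own mouse, and p-values measure the spread between these mice. *Atm* itself was at 71.5 ± 10.1 CPM in *Atm*-WT against 45.4 ± 4.16 CPM in *Atm*-KO mice (log2 fold change −0.66, SE 0.103, adjusted p = 0.0775, edgeR), and no *Atm*-KO mouse reached the lowest *Atm*-WT mouse. *Atm* was called by DESeq2 (adjusted p = 2.01e-05). In edgeR it was called with no filter on low counts (adjusted p = 0.00402), a surrogate variable (0.0406), GC and length trends removed (0.0334), without mouse 32M (0.0315) and without mice 32M and 12M (0.0232). Granule cell markers summed to between 5769 and 8147 CPM and Purkinje cell markers to between 8608 and 10746 CPM in every library. Of 8 markers each, 3 granule cell markers (median log2 fold change 0.05) and 7 Purkinje cell markers (−0.09) were lower in *Atm*-KO mice. Also lower were 8 of 8 markers for choroid plexus (−0.55), 8 of 8 for astrocytes and Bergmann glia (−0.18) and 7 of 8 for oligodendrocytes (−0.18). Of 8 cycling markers, 4 were lower and 4 higher. Astrocyte markers summed to between 5108 and 5869 CPM in *Atm*-WT against 4525 to 5318 CPM in *Atm*-KO libraries, choroid plexus markers to between 808 and 1602 against 443 to 1248 CPM, and oligodendrocyte markers to between 3282 and 4314 against 1987 to 3394 CPM. In each of the choroid plexus, astrocyte and oligodendrocyte lists, 0 markers passed the adjusted p in edgeR. In each, 3 were lower at an unadjusted p under 0.05 (37.5% of the list, against 8.48% of all genes in that direction). DESeq2 called 2 astrocyte markers (25%, against 7.49% of all genes) and 0 choroid plexus or oligodendrocyte markers. Of the Purkinje cell markers, 1 was lower at an unadjusted p under 0.05 (12.5%), and DESeq2 called 0. The part of the cell types of these lists in the levels of *Ezh2*, PP2A subunits and kinases was not tested. RNAs kept in the nucleus, such as *Malat1* and *Neat1*, summed to between 5124 and 10013 CPM in *Atm*-WT and between 10594 and 16303 CPM in *Atm*-KO libraries, with the lowest sum in *Atm*-WT mouse 32M. Over all genes tested the median log2 fold change was −0.02, and over the 15322 protein-coding genes it was −0.06, with 63.8% of them on the lower side. With library size alone as scaling, that share was 53.0% and the median −0.01.

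Neither the class IIa deacetylases nor the Mef2 factors, *Ezh2* or *Ppp2ca* passed an adjusted p of 0.05 in edgeR (0 of 9), where 4 of 22423 genes did (0.0178%). At an unadjusted p under 0.05, *Hdac7* was higher in *Atm*-KO mice, against 11.7% of all genes tested, and *Ezh2* and *Mef2c* were lower, against 8.48% of all genes. DESeq2 called 1 of the 9, *Hdac7*, where it called 7.49% of the 20724 genes to which it gave an adjusted p. limma voom called 0 of the 9, with the same 3 genes at an unadjusted p under 0.05. The libraries of the genotypes did not overlap for *Hdac7*, as for 6.47% of genes in the higher direction, and for *Ezh2*, as for 5.12% of genes in the lower direction.

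**Figure D1:**
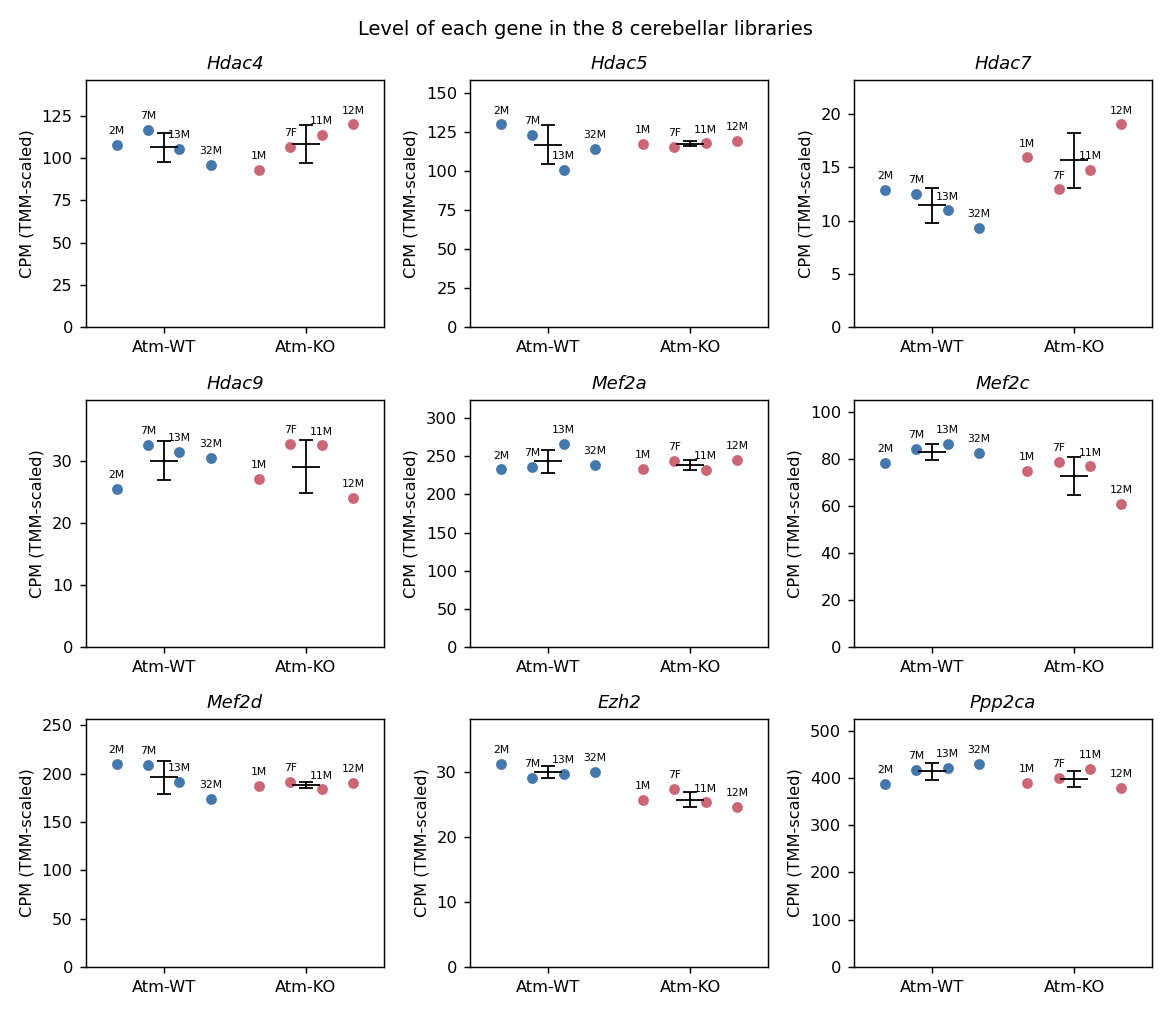
Level of each of the 9 genes in CPM (vertical axis, from 0) in each *Atm*-WT (blue) and *Atm*-KO (red) library, labelled by mouse tag; bars are the mean and SD of 4 mice. The genotypes separate for *Hdac7*, by the narrow margin between 12.85 and 12.92 CPM, and for *Ezh2*, between 27.4 and 29.0 CPM, and overlap for the other genes.

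*Hdac7*, the class IIa member best known from the vascular endothelium and developing thymocytes, lies on chromosome 15 of GRCm39 from 97687372 to 97742383 on the minus strand. It measured 12.9, 12.5, 10.96 and 9.34 CPM in *Atm*-WT mice 2M, 7M, 13M and 32M, and 15.9, 12.9, 14.7 and 19.0 CPM in *Atm*-KO mice 1M, 7F, 11M and 12M. Mouse 12M was the highest and mouse 32M the lowest of the 8, and the lowest *Atm*-KO mouse (7F, 12.92 CPM) stood just above the highest *Atm*-WT mouse (2M, 12.85 CPM). The means were 11.4 ± 1.61 and 15.6 ± 2.56 CPM, a log2 fold change of 0.45 (SE 0.138, 95% interval 0.15 to 0.76, unadjusted p = 0.00673, adjusted p = 0.125, edgeR). This difference was above that of 83.6% of genes tested. DESeq2 gave it an adjusted p of 0.0299. With mice 32M and 12M both left out the log2 fold change was 0.26 (adjusted p = 0.352, edgeR). Those mice were also the lowest of their genotype in RNAs kept in the nucleus (32M) and in mural and oligodendrocyte markers (12M), and the part of these in the difference was not tested. RNAs kept in the nucleus summed to 16303, 10594, 11314 and 16038 CPM in *Atm*-KO mice 1M, 7F, 11M and 12M, so that the mice with the highest sums were also those with the most *Hdac7*. Of 8 endothelial markers, 4 were lower and 4 higher in *Atm*-KO mice, and their sum ran from 245 to 280 CPM in *Atm*-WT and from 211 to 274 CPM in *Atm*-KO libraries. Exons of *Hdac7* share 2396 bases with those of *Slc48a1*, a heme transporter on the opposite strand. The counting is not stated to use strand, and reads of these bases cannot be assigned to either gene. *Slc48a1* had a log2 fold change of −0.15 (SE 0.0763, adjusted p = 0.294, edgeR).

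*Hdac4*, the deacetylase most studied in neurons without ATM, lies on chromosome 1 from 91855937 to 92123421 on the minus strand. It was at 108, 117, 106 and 96.0 CPM in *Atm*-WT and at 93.3, 106, 114 and 120.0 CPM in *Atm*-KO mice, in the order of mice given for *Hdac7*. The lowest and the highest of the 8 values were both *Atm*-KO mice, 1M and 12M, and the groups overlapped throughout. Its log2 fold change was 0.02 (SE 0.0861, 95% interval −0.17 to 0.21, adjusted p = 0.906, edgeR). It was below 0 under 5 of 19 alternatives.

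*Hdac5*, which shuttles between nucleus and cytoplasm with activity in neurons, lies on chromosome 11 from 102085245 to 102121072 on the minus strand. It was at 130, 123, 101 and 114 CPM in *Atm*-WT and at 117, 115, 117 and 119 CPM in *Atm*-KO mice. The *Atm*-KO values fell inside the range of the *Atm*-WT values, with an SD of 1.58 against 12.5 CPM, and the log2 fold change was 0.01 (SE 0.0756, 95% interval −0.16 to 0.17, adjusted p = 0.975, edgeR). Exons of *Hdac5* share 2826 bases with *G6pc3*, a glucose-6-phosphatase gene on the opposite strand, whose own log2 fold change was −0.23 (SE 0.095, adjusted p = 0.202, edgeR).

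*Hdac9*, a class IIa gene that is itself induced by Mef2 in muscle and codes for a repressor of Mef2, spans chromosome 12 from 34097579 to 34967094 on the minus strand. It was at 25.5, 32.6, 31.4 and 30.5 CPM in *Atm*-WT and at 27.1, 32.7, 32.5 and 24.0 CPM in *Atm*-KO mice. The lowest values came from mouse 2M in the first group and mouse 12M in the second, and the groups overlapped. The log2 fold change was −0.05 (SE 0.113, 95% interval −0.29 to 0.20, adjusted p = 0.852, edgeR), and with library size alone as scaling it was on the other side of 0.

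Taken as shares of the class IIa transcripts, with counts divided by exon length, *Hdac5* held 57.1 ± 2.81% in *Atm*-WT against 56.1 ± 1.80% in *Atm*-KO mice. *Hdac4* held 28.7 ± 1.73% and 28.5 ± 2.01%, and *Hdac9* 8.88 ± 1.28% and 8.36 ± 1.30%. The share of *Hdac7* was 5.29 ± 0.487% in *Atm*-WT against 7.08 ± 1.04% in *Atm*-KO mice. It lay between 4.57% and 5.63% in the first and between 5.96% and 8.29% in the second, which is the difference of *Hdac7* described above on a scale that does not depend on the normalization between libraries. The summed level of the 4 deacetylases was between 249 and 285 CPM in *Atm*-WT and between 254 and 282 CPM in *Atm*-KO libraries.

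*Mef2c*, the Mef2 factor tied to synapse number in the forebrain and also expressed by microglia, lies on chromosome 13 from 83652064 to 83815555 on the plus strand. It was at 78.4, 84.4, 86.4 and 82.8 CPM in *Atm*-WT and at 74.9, 79.0, 77.0 and 60.8 CPM in *Atm*-KO mice. Mouse 12M was well below the other *Atm*-KO mice, and mouse 7F stood above *Atm*-WT mouse 2M, so that the groups overlapped. The means were 83.0 ± 3.42 and 72.9 ± 8.22 CPM, a log2 fold change of −0.19 (SE 0.0823, 95% interval −0.37 to −0.01, unadjusted p = 0.0434, adjusted p = 0.233, edgeR). Without mouse 12M it was −0.11 (unadjusted p = 0.122, edgeR). The 8 microglial markers were all on the lower side, and their median log2 fold change was −0.36. Their summed level ran from 140.3 to 187 CPM in *Atm*-WT and from 107 to 142 CPM in *Atm*-KO libraries, lowest in mouse 12M, and 0 of the 8 passed the adjusted p in edgeR. Of the 8, 5 had an unadjusted p under 0.05 (8.48% of all genes in that direction), 4 did not overlap between genotypes (5.12%), and DESeq2 called 4 (7.49%). *Aif1* was the 1 microglial marker under 1 CPM, and the part of microglia in the level of *Mef2c* was not tested.

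*Mef2d*, the Mef2 factor with the most counts per kb of merged exons in these libraries, lies on chromosome 3 from 88049185 to 88079398 on the plus strand. It was at 209.9, 209.1, 191 and 174 CPM in *Atm*-WT and at 187, 191, 184 and 190.1 CPM in *Atm*-KO mice. The *Atm*-KO mice lay close together and inside the wider *Atm*-WT range (log2 fold change −0.06, SE 0.0693, 95% interval −0.21 to 0.09, adjusted p = 0.659, edgeR). It was −0.12 without mouse 32M and −0.03 without mouse 2M or mouse 7M. Its exons share 543 bases with the long non-coding gene *1700113A16Rik* on the opposite strand.

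*Mef2a*, a Mef2 factor whose target genes HDAC4 silences in neurons without ATM, lies on chromosome 7 from 66880911 to 67022606 on the minus strand. It was at 233, 236, 266 and 239 CPM in *Atm*-WT and at 234, 244, 232 and 245 CPM in *Atm*-KO mice. Mouse 13M was the highest of the 8 and the other values lay together. The log2 fold change was −0.03 (SE 0.0623, 95% interval −0.16 to 0.11, adjusted p = 0.835, edgeR). Without mouse 13M it was 0.03, and with library size alone or with protein-coding genes alone it was also just above 0. A direction shared by the 3 Mef2 factors therefore depended on 1 library and on the scaling. Exons of *Mef2a* share 1081 bases with *Lysmd4* on the opposite strand, which had a log2 fold change of 0.00 (SE 0.0899, edgeR). The shares of the 3 factors, per exon length, were 55.4 ± 2.92% for *Mef2d*, 34.1 ± 2.38% for *Mef2a* and 10.5 ± 0.635% for *Mef2c* in *Atm*-WT mice, and 55.5 ± 0.506%, 34.9 ± 0.643% and 9.63 ± 1.07% in *Atm*-KO mice.

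*Ezh2* lies on chromosome 6 from 47507073 to 47572331 on the minus strand, and its promoter window is printed above. It was at 31.2, 29.0, 29.7 and 30.02 CPM in *Atm*-WT and at 25.6, 27.4, 25.3 and 24.7 CPM in *Atm*-KO mice. The *Atm*-WT mice lay close together, and the highest *Atm*-KO mouse, 7F, was below the lowest of them. The means were 29.99 ± 0.915 and 25.7 ± 1.16 CPM, a log2 fold change of −0.22 (SE 0.067, 95% interval −0.37 to −0.07, unadjusted p = 0.00684, adjusted p = 0.125, edgeR), and DESeq2 gave an adjusted p of 0.0527. It stayed between −0.24 and −0.17 under 19 alternatives, with an unadjusted p under 0.05 in 19 of the 19 and an adjusted p between 0.0527 and 0.314. *Ezh2* is known from dividing cells, and of 8 cycling markers 5 were under 1 CPM in these libraries, among them *Mki67* and *Top2a*, while the sum of the 8 ran from 50.6 to 60.9 CPM in *Atm*-WT and from 49.5 to 55.2 CPM in *Atm*-KO libraries. Exons of *Ezh2* share 94 bases with *Cul1*, whose log2 fold change was 0.00 (SE 0.0574, edgeR).

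*Ezh1*, the paralogue of *Ezh2* in nondividing cells, was at 101 ± 4.24 CPM in *Atm*-WT against 97.8 ± 6.91 CPM in *Atm*-KO mice (log2 fold change −0.05, SE 0.0658, adjusted p = 0.715, edgeR), and its exons share 814 bases with *Cntnap1* on the opposite strand. The log2 ratio of *Ezh2* to *Ezh1* within a library, per exon length, was −1.38, −1.44, −1.49 and −1.34 in *Atm*-WT against −1.56, −1.39, −1.61 and −1.78 in *Atm*-KO mice. Mouse 7F lay among the *Atm*-WT mice and the other *Atm*-KO mice lay below them. The ratio was 0.17 lower in *Atm*-KO mice (difference −0.17), with p = 0.0857 in a two-sided exact permutation test of 70 splits and 0.171 after adjustment over 2 ratios, where the smallest p possible was 0.0286. Without mouse 12M the difference was −0.11 (exact permutation test, p = 0.171). Without mouse 7F it was −0.24 (p = 0.0286, the smallest that the 35 splits of 7 libraries can give, and 0.0571 after adjustment over the 2 ratios, exact permutation test).

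Counts in the gene lists that follow are read against the whole table, where 8.48% of genes were lower and 11.7% higher at an unadjusted p under 0.05 and DESeq2 called 7.49%. The lists were chosen with earlier results of these data known, so their shares are a description and not an independent test. Of 10 other subunits and partners of PRC2, 5 were lower and 5 higher, where 63.8% of protein-coding genes were lower. Their median log2 fold change was 0.00, and 0 passed the adjusted p in edgeR or DESeq2. *Rbbp7*, a histone-binding subunit shared with deacetylase complexes, was the 1 gene with an unadjusted p under 0.05. It was at 117 ± 3.9 CPM in *Atm*-WT against 107 ± 3.73 CPM in *Atm*-KO mice without overlap (log2 fold change −0.13, SE 0.056, adjusted p = 0.237, edgeR). The list held 0 genes with an unadjusted p under 0.05 without mouse 13M, 32M, 1M or 12M, each left out in turn. It also held 0 with DESeq2, limma voom, RLE factors or a surrogate variable. It held 2 without mouse 7M or with GC and length trends removed. *Jarid2*, a cofactor that brings PRC2 to chromatin, had the highest log2 fold change of the list, 0.19 (SE 0.0942, adjusted p = 0.276, edgeR). The demethylases that erase H3K27me3 went to either side of 0, with *Kdm6a* at 0.17 (SE 0.112, adjusted p = 0.400, edgeR) and *Kdm6b* at −0.05 (SE 0.114, adjusted p = 0.838, edgeR). *Kdm6a* was at 70.2, 74.6, 76.6 and 65.8 CPM in *Atm*-WT and at 73.9, 102 and 68.2 CPM in *Atm*-KO mice 1M, 7F and 11M, with 79.9 CPM in mouse 12M. Mouse 7F was far above the other mice, and without it the log2 fold change of *Kdm6a* was 0.06 (SE 0.0807, adjusted p = 0.714, edgeR), while without mouse 11M it was 0.26 (unadjusted p = 0.0345, adjusted p = 0.236, edgeR). *Kdm6b* was above 0 without mouse 2M (0.04) or mouse 11M (0.03).

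**Figure D2:**
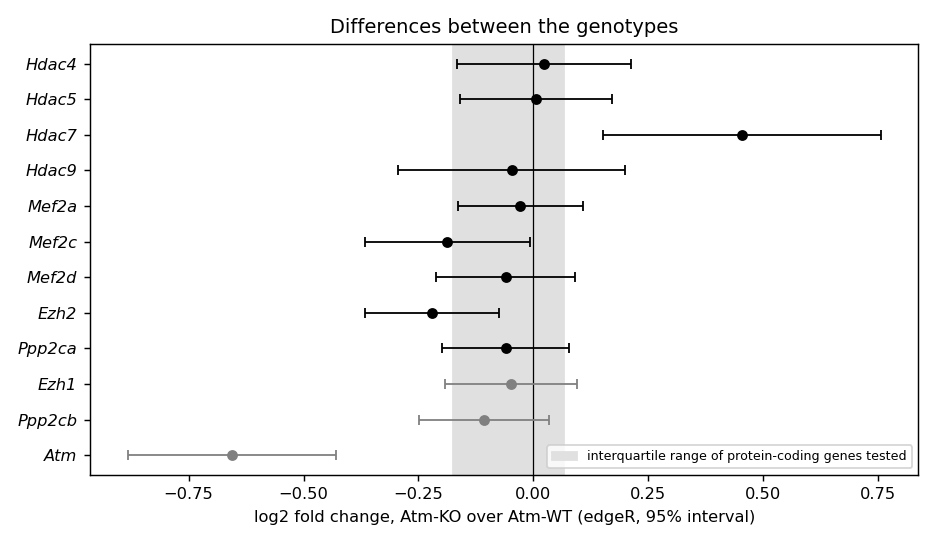
Log2 fold change of *Atm*-KO over *Atm*-WT mice (horizontal axis) with its 95% interval from edgeR for the 9 genes (black) and for *Ezh1*, *Ppp2cb* and *Atm* (grey); the band is the interquartile range of the protein-coding genes tested. The intervals of *Hdac7* (0.15 to 0.76), *Ezh2* (−0.37 to −0.07) and *Mef2c* (−0.37 to −0.01) lie off 0, none of them with an adjusted p under 0.05, and the other 6 genes have intervals across 0.

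*Ppp2ca*, on chromosome 11 from 51989508 to 52018605 on the plus strand, was at 387, 417, 422 and 429.6 CPM in *Atm*-WT and at 389, 401, 419 and 379.6 CPM in *Atm*-KO mice. The groups overlapped, with mouse 12M lowest and mouse 32M highest (log2 fold change −0.06, SE 0.063, 95% interval −0.20 to 0.08, adjusted p = 0.627, edgeR). It was −0.09 without mouse 2M and −0.04 without mouse 13M or mouse 12M. *Ppp2cb*, the other catalytic subunit of PP2A, was at 87.2 ± 5.04 and 81.0 ± 3.94 CPM (log2 fold change −0.11, SE 0.0645, adjusted p = 0.373, edgeR), and its exons share 985 bases with *Ubxn8* on the opposite strand. The log2 ratio of *Ppp2ca* to *Ppp2cb* was 0.65 ± 0.0289 in *Atm*-WT against 0.70 ± 0.0608 in *Atm*-KO mice (difference 0.05, exact permutation test, p = 0.200). The difference was 0.07 without mouse 1M (exact permutation test, p = 0.0286, and 0.0571 after adjustment over the 2 ratios). It was 0.03 without mouse 11M and 0.03 without mouse 12M (exact permutation test, p = 0.429 for each).

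Of 23 other subunits and regulators of PP2A, 19 were on the lower side, and their median log2 fold change was −0.08, beside −0.06 for all protein-coding genes. That is 82.6% of the list, where 63.8% of protein-coding genes were lower. With library size alone 14 of the 23 were lower with a median of −0.03, and without *Atm*-WT mouse 13M 15 were lower with a median of −0.04. Of protein-coding genes, 53.0% were lower with library size alone and 60.1% without mouse 13M. Among the 23, 0 passed the adjusted p in edgeR. At an unadjusted p under 0.05, 3 were lower and 1 higher. The number, 4 in all, was 2 without mouse 32M, 1M or 12M, each left out in turn, or with a surrogate variable. DESeq2 called 1 (4.35% of the list, against 7.49% of all genes), *Ppp2r1a*. *Ppp2r1a*, the main scaffold subunit, was at 382, 369.6, 389 and 396 CPM in *Atm*-WT and at 326, 341, 345 and 332 CPM in *Atm*-KO mice. The groups did not overlap (log2 fold change −0.19, SE 0.0573, adjusted p = 0.120, edgeR). *Ppp2r1b*, the other scaffold subunit, was at 34.2 ± 1.74 and 40.1 ± 4.35 CPM (log2 fold change 0.23, SE 0.0845, adjusted p = 0.172, edgeR), the highest of the list. *Ppp2r3a*, a regulatory subunit, had the lowest, from 93.2 ± 7.55 to 77.5 ± 8.20 CPM without overlap (log2 fold change −0.27, SE 0.0858, adjusted p = 0.139, edgeR). *Ppp2r5a*, another regulatory subunit, was at 61.7 ± 6.06 and 54.8 ± 0.491 CPM, with overlap.

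Kinases and 14-3-3 proteins that move class IIa deacetylases out of the nucleus were on the lower side in 20 of 25, and the median log2 fold change was −0.09. Those are 80% of the list, beside 63.8% of protein-coding genes. The count was 16 of 25 with library size alone, with a median of −0.04, where 53.0% of protein-coding genes were lower. None of the 25 passed the adjusted p in edgeR (0), and 4 had an unadjusted p under 0.05, all lower (16% of the list, against 8.48% of all genes in that direction). Those with an unadjusted p under 0.05 numbered 1 without *Atm*-KO mouse 1M, 2 without mouse 13M or mouse 11M, 6 without mouse 2M and 1 with library size alone. DESeq2 called 1 (4%, against 7.49% of all genes), *Sik1*, which edgeR called as well with no filter on low counts (adjusted p = 0.00856). *Sik1*, a salt-inducible kinase that is itself induced by cAMP and neuronal activity, had the lowest log2 fold change. It was at 15.2, 19.4, 15.2 and 18.4 CPM in *Atm*-WT and at 11.1, 11.3, 10.1 and 9.81 CPM in *Atm*-KO mice, without overlap (log2 fold change −0.69, SE 0.109, adjusted p = 0.0775, edgeR). *Camk2a*, a calcium-dependent kinase, was at 126 ± 4.74 and 103 ± 19.6 CPM, and mouse 12M was far below the other *Atm*-KO mice at 74.4 CPM (log2 fold change −0.29, SE 0.118, adjusted p = 0.207, edgeR). The 14-3-3 genes *Ywhah* and *Ywhae* had log2 fold changes of −0.19 (SE 0.0717) and −0.17 (SE 0.0699) with overlapping groups. *Camk1* had the highest value, 0.07 (SE 0.0823, adjusted p = 0.692, edgeR).

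Among 6 corepressor partners of the class IIa deacetylases, 4 were lower (66.7%, beside 63.8% of protein-coding genes) and 2 higher. With library size alone 1 of the 6 was lower, where 53.0% of protein-coding genes were. *Hdac3*, which supplies deacetylase activity to the NCoR complex, was the 1 with an unadjusted p under 0.05, at 36.5 ± 2.34 CPM in *Atm*-WT against 41.6 ± 2.51 CPM in *Atm*-KO mice with overlap (log2 fold change 0.19, SE 0.0728, adjusted p = 0.182, edgeR). No corepressor partner (0) had an unadjusted p under 0.05 without mouse 7M, 1M or 12M, each left out in turn. *Gps2* had the highest log2 fold change, 0.27 (SE 0.15), and *Tbl1x* the lowest, −0.10 (SE 0.0687), both subunits of that complex. Of 14 other deacetylases and sirtuins, 10 were on the higher side and 4 on the lower (28.6% of the list, where 63.8% of protein-coding genes were lower). Their median log2 fold change was 0.12, and 0 passed the adjusted p in edgeR. An unadjusted p under 0.05 was reached by 4 of them, all higher, *Hdac3* included (28.6% of the list, against 11.7% of all genes in that direction). Genes with an unadjusted p under 0.05 numbered 2 without mouse 12M, without mice 32M and 12M, or with a surrogate variable. They numbered 6 without mouse 7F or with library size alone, and 7 with protein-coding genes alone. DESeq2 called 2 (14.3%, against 7.49%), *Sirt4* and *Sirt7*, and with no filter on low counts edgeR called *Sirt7* (adjusted p = 0.0436).

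*Sirt4*, a mitochondrial sirtuin, was at 7.06, 7.48, 8.6 and 7.02 CPM in *Atm*-WT and at 12.5, 10.1, 9.16 and 12.1 CPM in *Atm*-KO mice, without overlap (log2 fold change 0.54, SE 0.131, adjusted p = 0.0958, edgeR). *Sirt7*, a nucleolar sirtuin, was at 14.7 ± 1.27 and 20.5 ± 3.35 CPM, also without overlap (log2 fold change 0.48, SE 0.121, adjusted p = 0.101, edgeR). Within the *Atm*-KO group it was at 23.2 and 23.4 CPM in mice 1M and 12M and at 17.2 and 17.9 CPM in mice 7F and 11M. For *Sirt4* as for *Sirt7*, mice 1M and 12M, with the highest sums of RNAs kept in the nucleus given with *Hdac7*, were the highest, and the part of this in the differences was not tested. *Hdac10*, a class IIb gene whose enzyme deacetylates polyamines, was at 8.37 ± 1.68 and 11.03 ± 1.37 CPM with overlap (log2 fold change 0.40, SE 0.156, adjusted p = 0.189, edgeR). *Sirt2*, a sirtuin of myelinating cells, had the lowest value of the list, −0.12 (SE 0.088, adjusted p = 0.460, edgeR).

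Regulators and coactivators of Mef2 held 0 genes with an unadjusted p under 0.05 among 11 tested, and 0 past the adjusted p in edgeR, DESeq2 or limma voom. The list held 2 genes with an unadjusted p under 0.05 without mouse 7M, without mouse 11M, with library size alone, with protein-coding genes alone, with GC and length trends removed, with halved counts and with each other filter on low counts. *Mapk7*, the kinase ERK5 that activates Mef2, had the highest log2 fold change, 0.26 (SE 0.125, adjusted p = 0.262, edgeR), and *Ppp3r1*, the regulatory subunit of calcineurin, the lowest, −0.13 (SE 0.0851, adjusted p = 0.398, edgeR). *Mef2b*, the fourth member of the family, did not pass the filter on low counts, with 0 to 12 counts per library.

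Genes known as Mef2 targets were on the lower side in 10 of 11 (*Hdac9* among them), and the median log2 fold change was −0.10. That is 90.9% of the list, beside 63.8% of protein-coding genes. Because this list was chosen with earlier results of these data known, its shares are no independent test of Mef2 activity. The count was 7 of 11 with a median of −0.05 with library size alone, and 9 of 11 with a median of −0.06 without *Atm*-KO mouse 12M. Of protein-coding genes, 53.0% were lower with library size alone and 61.3% without mouse 12M. None passed the adjusted p in edgeR (0 of 11), and 5 had an unadjusted p under 0.05, all lower (45.5% of the list, against 8.48% of all genes in that direction). The number with an unadjusted p under 0.05 was 3 without mouse 7M, 32M, 11M or 12M, each left out in turn, and 3 with a surrogate variable. DESeq2 called 3 (27.3%, against 7.49% of all genes), *Klf2*, *Klf4* and *Nr4a1*. Without *Atm*-WT mouse 13M edgeR called 2 of the 11, *Klf2* (adjusted p = 0.0291) and *Klf4* (adjusted p = 0.0317), and without *Atm*-WT mouse 32M it called *Klf2* (1 gene, adjusted p = 0.0315, log2 fold change −1.13). With no filter on low counts edgeR called 3, *Klf2* (adjusted p = 0.00293), *Klf4* (adjusted p = 0.00427) and *Nr4a1* (adjusted p = 0.0302). With GC and length trends removed it called *Klf2* (adjusted p = 0.0340) and *Klf4* (adjusted p = 0.0378), and without mice 32M and 12M *Klf2* (adjusted p = 0.0232). *Klf2*, a factor of quiescent endothelium that responds to blood flow, was at 9.21, 9.54, 7.76 and 16.5 CPM in *Atm*-WT and at 4.65, 4.21, 3.73 and 3.61 CPM in *Atm*-KO mice. The groups did not overlap, and *Atm*-WT mouse 32M was well above the other mice (log2 fold change −1.41, SE 0.217, adjusted p = 0.0775, edgeR). *Klf4*, a related factor of endothelium and smooth muscle, was at 10.02, 10.2, 8.44 and 13.3 CPM and at 5.82, 5.43, 5.34 and 4.46 CPM, again without overlap (log2 fold change −0.99, SE 0.153, adjusted p = 0.0775, edgeR). *Nr4a1*, an immediate early gene, was at 15.6 ± 2.86 and 9.14 ± 2.57 CPM with overlap (log2 fold change −0.77, SE 0.198, adjusted p = 0.104, edgeR). *Bdnf*, a neurotrophin, and *Jun*, a subunit of AP-1, had log2 fold changes of −0.29 (SE 0.125) and −0.24 (SE 0.11), both with overlap.

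Because *Klf2* and *Klf4* are known from vessel walls, vascular and microglial marker sums are given beside them. The endothelial sums are given with *Hdac7* and the microglial sums with *Mef2c*. The 8 mural markers were all on the lower side, with a sum of 167 to 219 CPM in *Atm*-WT against 129.9 to 179.7 CPM in *Atm*-KO libraries. DESeq2 called 2 of the 8 mural and 2 of the 8 endothelial markers (25% of each list, against 7.49% of all genes), and edgeR 0 of either. At an unadjusted p under 0.05, 4 mural (50%) and 3 endothelial markers (37.5%) were lower, against 8.48% of all genes in that direction. *Pecam1*, a defining endothelial marker, was at 22.5 ± 1.6 and 16.9 ± 2.04 CPM (log2 fold change −0.42, SE 0.1, adjusted p = 0.0948, edgeR) and *Cldn5* at 16.3 ± 4.25 and 17.7 ± 2.6 CPM (log2 fold change 0.13, SE 0.172, adjusted p = 0.718, edgeR). The part of cell composition in the levels of *Klf2*, *Klf4* and *Sik1* was not tested.

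**Figure D3:**
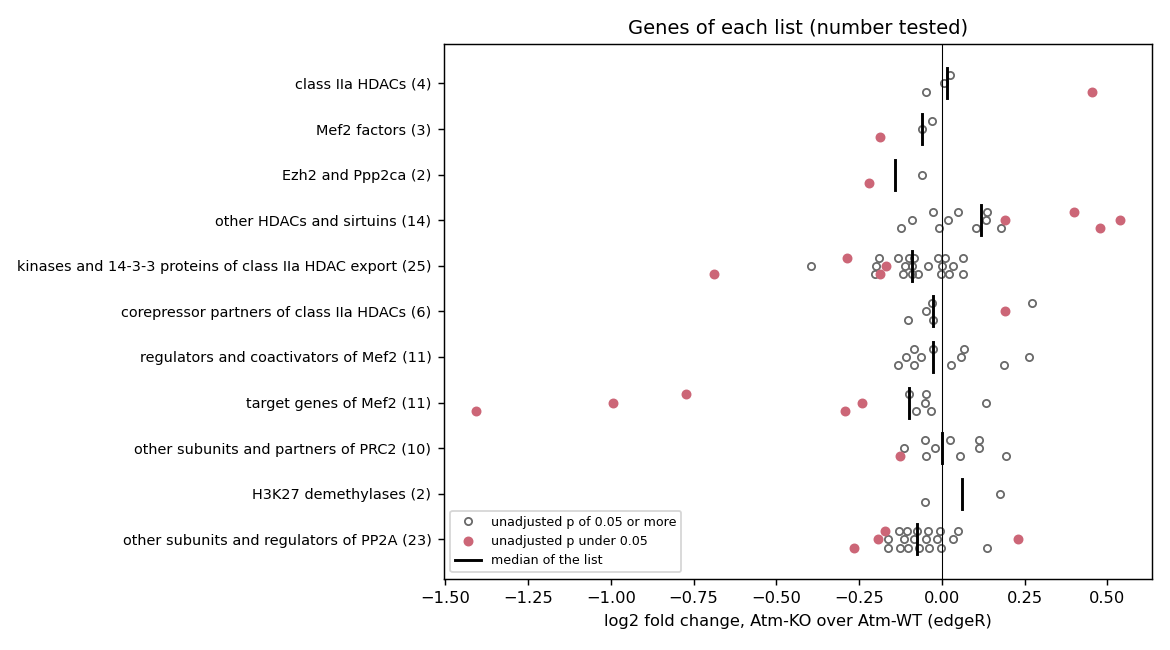
Log2 fold change of *Atm*-KO over *Atm*-WT mice from edgeR (horizontal axis) for each gene of the lists named on the left, with the number tested; filled points have an unadjusted p under 0.05, open points do not, and the line is the median of the list. *Klf2* (−1.41), *Klf4* (−0.99), *Nr4a1* (−0.77) and *Sik1* (−0.69) lie farthest to the left, and *Sirt4* (0.54) and *Sirt7* (0.48) with *Hdac7* (0.45) farthest to the right.

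Per kb of exon, the 9 genes spanned a wide range, with an order in *Atm*-WT mice in which no neighbours overlapped. *Ppp2ca* was highest at 49.6 ± 2.21 CPM per kb, followed by *Mef2d* at 25.6 ± 2.24, *Mef2a* at 15.7 ± 0.977 and *Hdac5* at 12.4 ± 1.32 CPM per kb. *Hdac4* was at 6.23 ± 0.502, *Mef2c* at 4.84 ± 0.200 and *Ezh2* at 4.11 ± 0.125 CPM per kb, and *Hdac9* and *Hdac7* were lowest at 1.91 ± 0.199 and 1.15 ± 0.162 CPM per kb. The order of the means was the same in *Atm*-KO mice. This order and the family shares rest on the merged annotated exons of each gene, and not on the transcripts expressed. Those exons span 7663 bases for *Mef2d* and 15500 for *Mef2a*. In CPM, *Mef2a* (243) stood above *Mef2d* (196) in *Atm*-WT mice, and *Hdac4* (107) was near *Hdac5* (117). Even *Hdac7*, the lowest, had at least 801 counts in each library.

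**Figure D4:**
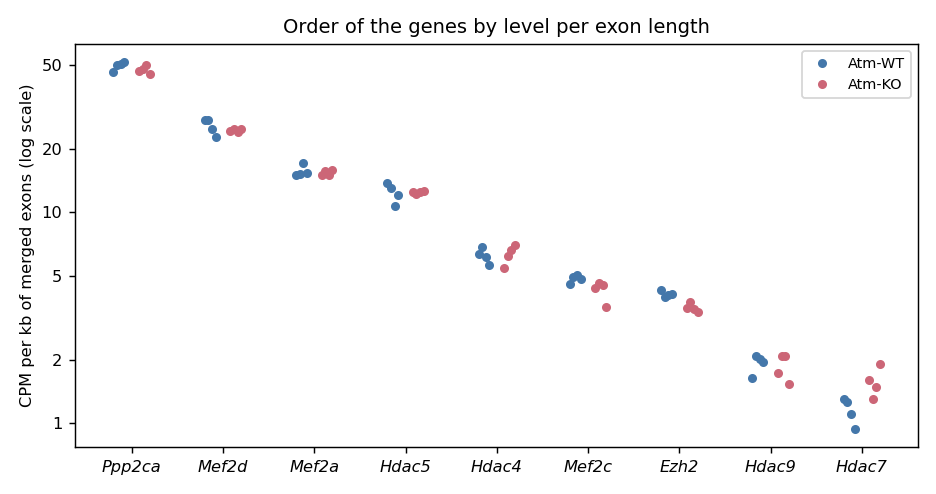
Level of each gene in CPM per kb of merged exons (vertical axis, log scale) in each *Atm*-WT (blue) and *Atm*-KO (red) library, ordered by the *Atm*-WT mean. The genes run from *Ppp2ca* at a mean of 49.6 to *Hdac7* at 1.15 CPM per kb in *Atm*-WT mice, and the ranges of the *Atm*-WT libraries of neighbouring genes do not overlap.

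The genes whose profile over the 8 libraries was most like that of 4 of the genes were found among 9736 protein-coding genes with a mean of at least 10 CPM, by the root mean square difference of log2 CPM after subtraction of the *Atm*-WT mean. For *Ezh2* they were *Jade2* (0.0255) and *Mepce* (0.0294), whose log2 fold changes were −0.22 and −0.21. For *Ppp2ca* they were the 14-3-3 gene *Ywhaz* (0.0242) and the protein kinase A subunit *Prkar1a* (0.0261). For *Mef2d* they were *Pogz* (0.0347) and *Cep120* (0.0352), and for *Hdac4* the protocadherin *Pcdhga11* (0.0362) and *Hivep2* (0.0447). The libraries are shared by all genes compared, and nothing follows from a small difference about shared function or control.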

How the data were processed

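Bulk RNA sequencing of frozen cerebellum was analysed from 4 *Atm*-WT and 4 *Atm*-KO mice. The authors aligned reads with STAR to GRCm39 (GENCODE Release 28), counted them with featureCounts and deposited raw counts per gene with no normalization. Settings for strand and read pairs are not given in the sources used here. Identifiers were matched without version to GENCODE vM39 on GRCm39 (56017 of 56691, 98.8%), which also gave positions, exon lengths and overlaps.

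The counts of the genotypes were tested in R 4.3.3 with edgeR 4.0.16 (filterByExpr, TMM, glmQLFit, glmQLFTest, Benjamini-Hochberg adjustment, no covariate). The common dispersion was 0.0404. DESeq2 1.42.0, limma 3.58.1 (voom), RLE factors, library size alone, other filters on low counts, a surrogate variable from sva 3.50.0, removal of GC and length trends, halved counts and each library left out were alternatives. Protein-coding genes alone, and mice 32M and 12M left out together, were added after seeing the data. Log2 ratios of paralogues were compared with exact permutation tests.

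The 9 genes and the gene lists were chosen with earlier results of these data known. Named genes were the 9, *Atm*, *Ezh1*, *Ppp2cb* and *Hdac3*, the highest and lowest log2 fold change of each list, up to 4 genes a list with an unadjusted p under 0.05 where none passed the adjusted p, and the 2 nearest profiles. The values of 1 gene that this rule names are not reported here. *Jun*, the fifth such target of Mef2, *Mef2b*, genes sharing exons with the 9 and single marker genes were chosen after their values were seen.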

Additional observations from a re-analysis of the deposited data

Results flagged for a closer look

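Among 44 groups of 4 libraries examined, values of the 9 genes, summed marker lists and the ratios of paralogues together, 2 held a library far from the other 3 by Dixon's criterion, where chance gives 2.2 at 1 in 20. Mural cell markers summed to 129.9 CPM in *Atm*-KO mouse 12M and to between 175.6 and 179.7 CPM in the other *Atm*-KO mice. Meningeal fibroblast markers summed to 139.5 CPM in *Atm*-WT mouse 7M and to between 102 and 108 CPM in the other *Atm*-WT mice. None of the 9 genes had a library apart by this criterion.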

How the results depend on the processing

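Over 19 alternatives, 171 log2 fold changes of the 9 genes were refitted. Of these, 18 had another sign than in the reported fit, all in *Hdac4*, *Hdac5*, *Hdac9* or *Mef2a*, and 1 passed the adjusted p, *Hdac7* with DESeq2 (0.46, adjusted p = 0.0299). The number of the 9 genes called was 1 with DESeq2 and 0 otherwise, and between 2 and 3 had an unadjusted p under 0.05. *Hdac7* (19 of 19) and *Ezh2* (19 of 19) kept an unadjusted p under 0.05, and *Mef2c* did under 7 of 19. *Hdac7* ranged from 0.26 to 0.55, *Mef2c* from −0.22 to −0.11, *Mef2d* from −0.12 to −0.00962 and *Ppp2ca* from −0.092 to −0.0117.

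Library size alone gave 0.000764 for *Hdac9* and 0.0205 for *Mef2a*, and protein-coding genes alone 0.0145 for *Mef2a*. A surrogate variable gave −0.0425 for *Hdac4*, −0.00987 for *Hdac5* and 0.0421 for *Hdac9*, and removal of GC and length trends −0.00494 for *Hdac4* and −0.00897 for *Hdac5*. Without mice 32M and 12M the values were −0.0767, −0.0131 and 0.0417 for *Hdac4*, *Hdac5* and *Hdac9*. With each library left out, *Hdac4* ran from −0.0297 to 0.0885, *Hdac5* from −0.0424 to 0.0582, *Hdac9* from −0.118 to 0.0341 and *Mef2a* from −0.051 to 0.0326. All these values lie near 0. The log2 ratio of *Ezh2* to *Ezh1* differed by −0.236 to −0.105 and that of *Ppp2ca* to *Ppp2cb* by 0.0283 to 0.0722 with each library left out.

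Genes called across the whole table numbered 4 in the reported fit, 1552 with DESeq2, 591 with no filter on low counts, 15 with a surrogate variable, 10 with GC and length trends removed, 2 with protein-coding genes alone, 24 without mice 32M and 12M, and 1 to 27 with each library left out, the highest without *Atm*-WT mouse 13M. The cause was not tested. With 4 mice per genotype, differences as small as those of most of the 9 genes could not be told from 0. No paired analysis was possible because the mouse tags share only the number 7, in 2 different animals.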
